A study of Mus musculus with 6 samples.

Results

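Transcripts of 10 transcription factor genes, Fos, Fosb, Fosl1, Fosl2, Jun, Junb, Jund, Egr1, Egr2 and Egr3, were examined in mouse dendritic cells of bone marrow origin. The genes were chosen by name as the Fos, Jun and Egr families, and all 10 were found by symbol among the 23398 genes of the deposited table. The study compared cells given calcium hydroxide, Ca(OH)2, nanoparticles for 12 hours (3 libraries) with cells given vehicle for 12 hours (3 libraries). Both groups were bone marrow derived dendritic cells kept in DMEM with fetal bovine serum and antibiotics, and the culture cytokines, mouse strain, sex and age, and particle dose are not given in the sources used here. Each library was made from 1 µg of total RNA. The labels do not say whether the libraries of a group came from separate cultures or animals, so p-values measure the spread between these libraries, which may be technical.

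Fos and Jun proteins pair through leucine zippers to form AP-1, a transcription factor that binds short DNA sites near many cytokine, protease and growth genes. Jun proteins can pair with each other or with Fos proteins, whereas Fos proteins need a partner. EGR proteins are zinc finger factors that bind GC-rich sites. Many of these genes are immediate early genes: their transcripts appear within minutes of a stimulus without new protein synthesis, through kinases of the MAP kinase routes and factors already bound at the promoter, and most are short-lived. A measurement 12 hours after treatment therefore falls long after the time at which such transcripts usually peak.

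Expression is given as FPKM, reads per kilobase of gene length relative to 1 scale per library, so levels of different genes can be compared. That scale followed median-of-ratios size factors and not read totals, as set out under processing. The reads recovered from the FPKM values totalled 17285094 to 21980139 per library. Nanoparticle library 1 stood apart: 1257 of 10682 tested genes (11.8%) were over 2-fold away, on the log2(FPKM + 1) scale, from what libraries 2 and 3 averaged, against 152 and 337 genes for libraries 2 and 3 and 36 to 47 genes for each vehicle library. The dendritic cell label was checked with 10 markers. Itgax, H2-Ab1 and Cd74 were abundant in both groups (means of 449 and 340.4, 1002 and 905, and 4116 and 4111 FPKM in vehicle and nanoparticle libraries), and did not pass the test between groups, whereas Flt3 was under 1 FPKM in all libraries. Every nanoparticle library was below every vehicle library for Itgax. Without nanoparticle library 1 Itgax passed as lower and Cd74 as higher (limma adjusted p = 0.010 and 0.012). Itgax also passed as lower under 3 other scalings (limma adjusted p 0.0035 to 0.019). H2-Ab1 and Cd74 were 2.25 and 2.22 times lower in nanoparticle library 1 than the mean of libraries 2 and 3. Of the 9 dendritic cell markers tested 1 rose and 4 fell, where 17.0% of all tested genes rose and 16.2% fell. Irf8 rose from a mean of 8.68 to 21.2 FPKM. The 4 that fell were Cd209a (5.69 to 0.0254 FPKM, with at most 2 reads per nanoparticle library), Clec10a (6.92 to 0.786 FPKM), Ciita (15.8 to 6.09 FPKM) and Zbtb46 (3.97 to 2.30 FPKM). Cd209a reached 1 FPKM in vehicle libraries alone, so it entered the test only through the group in which it was high. The summed level of these markers was 5410.02 to 5821 FPKM in vehicle and 3088 to 6868 FPKM in nanoparticle libraries, with library 1 the lowest. All 9 macrophage markers were expressed as well, at 1099.6 to 1244 FPKM summed in vehicle and 1006 to 1226 FPKM in nanoparticle libraries. Of these markers 3 rose and 4 fell, beside the same shares of all tested genes. B cell and T cell markers were all under 1 FPKM, and the stromal list reached 2.41 FPKM in nanoparticle library 1 alone, from Dcn. Of 10 neutrophil markers 5 were under 1 FPKM in all libraries. The neutrophil list summed to 265 to 299 FPKM in vehicle and 180 to 253 FPKM in nanoparticle libraries. Its most abundant marker, Mmp8, fell from a mean of 245 to 130 FPKM, whereas S100a8 rose from 34.9 to 83.1 FPKM. S100a9, Camp and Ngp were higher in nanoparticle libraries 2 and 3 (S100a9 at 13.2 and 10.2 FPKM) than in any other library. Mast cell and basophil markers summed to at most 5.78 FPKM in any library, and Gata2 fell from 2.88 to 1.31 FPKM. The part of cell composition in the results below was not tested, and in bulk RNA fewer cells of a type and less RNA per cell cannot be told apart.

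In vehicle cells the most abundant members were Junb, at 80.2 ± 2.74 FPKM, and Jund, at 77.3 ± 5.89 FPKM (SD, n = 3 each), and the libraries of these neighbours overlapped. Egr2 followed at 66.3 ± 0.122 FPKM, then Jun at 37.3 ± 2.67, Fos at 15.8 ± 2.24 and Fosl2 at 12.6 ± 0.704 FPKM (SD, n = 3 each). Fosl1, at 5.28 ± 0.835 FPKM, and Egr1, at 4.52 ± 0.625 FPKM, overlapped in their libraries, and Egr3 (2.15 ± 0.649 FPKM) and Fosb (0.0924 ± 0.0490 FPKM) were lowest (SD, n = 3 each). By level, Junb stood at percentile 95.3 and Egr1 at percentile 40.9 of the tested genes in vehicle. In nanoparticle cells Junb stood clear of all other members at 238 ± 10.2 FPKM (SD, n = 3), and Fosl2 passed Fos in the order. In that group the ranges of Jund and Egr2, of Fos and Fosl1, of Fosl1 and Egr1, and of Egr3 and Fosb overlapped as neighbours.

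**Figure D1:**
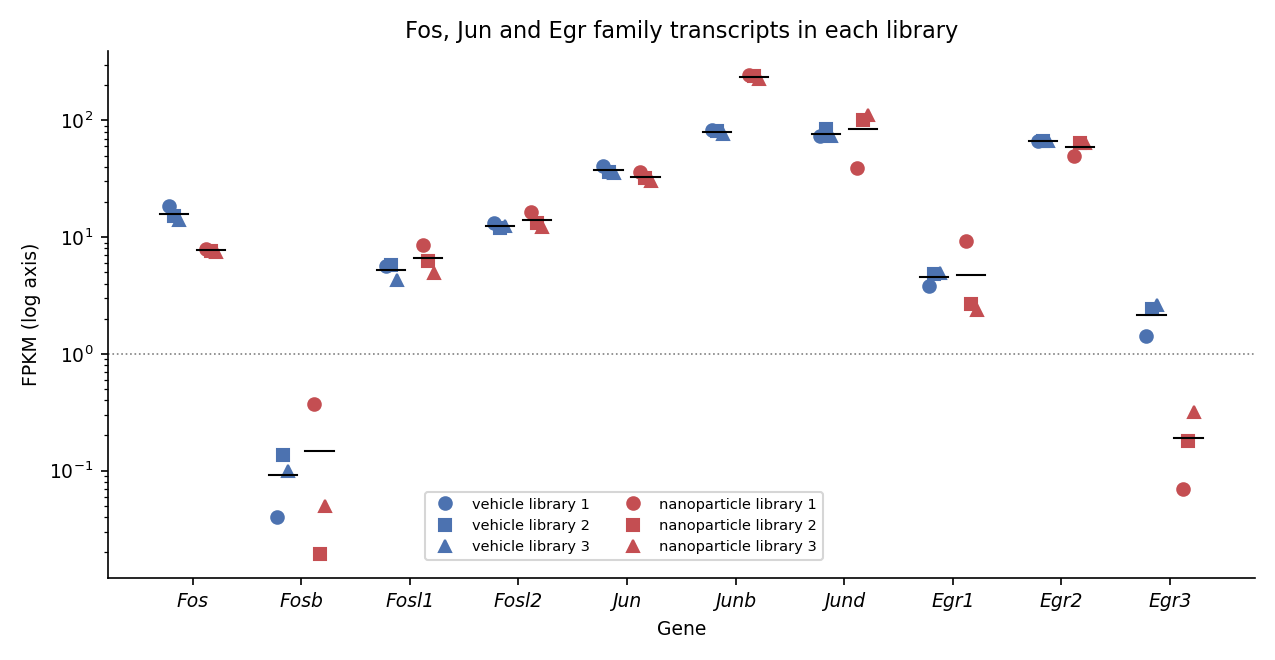
FPKM of the 10 members in each library (log axis), with vehicle libraries in blue and nanoparticle libraries in red, the library number as the symbol, and black bars at the group means. The dotted line marks 1 FPKM, the minimum for testing. Junb sits higher and Fos and Egr3 sit lower in every nanoparticle library than in any vehicle library, and nanoparticle library 1 lies apart for Jund and Egr1.

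Groups were compared with limma on log2(FPKM + 1) across 10682 genes that reached 1 FPKM in 3 or more libraries. Of the 10 members, 9 passed that filter and Fosb did not. At a Benjamini-Hochberg adjusted p under 0.05, 1 member rose (Junb), 2 fell (Fos and Egr3) and 6 did not pass. Egr3 reached 1 FPKM in vehicle libraries alone, so it entered the test only through the group in which it was high. Among all tested genes 33.2% passed, 17.0% higher and 16.2% lower, so 3 of 9 is the share found among genes in general and is not particular to these families. The groups did not overlap for 4 of the 10 members (Junb, Fos, Egr2 and Egr3), and for 52.1% of all tested genes (25.9% higher, 26.2% lower). With read totals 44.2% of tested genes passed (10.4% higher, 33.8% lower) and 5 members did, 1 higher and 4 lower, Jun and Egr2 being added. Equal sums of FPKM gave 48.6% (8.25% higher, 40.3% lower) and the same 5 members, and the upper quartile gave 34.0% (11.9% higher, 22.1% lower) and 4 members, Egr2 being added. The calls for Junb, Fos and Egr3 held under every scaling and with each library left out. Each of these fits used the genes that passed the filter, so for Egr3 the repeated calls add nothing to its values.

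Promoter sequence was taken from RefSeq (GRCm38.p6) as windows of 300 bases, 250 before and 50 after an annotated start. Windows were found for 7 members, and Fosl1, Egr1 and Egr3 had none. The bases before the start are shown for Junb, which rose, for Fos, which fell, and for an Egr2 start with a CArG box, the site bound by SRF. Each runs 5′ to 3′ on the strand of its gene, and capitals mark motif matches. The Junb stretch is chr8:84978749-84978998 on the minus strand, the Fos stretch chr12:85473640-85473889 on the plus strand and the Egr2 stretch chr10:67537619-67537868 on the plus strand.
Junb: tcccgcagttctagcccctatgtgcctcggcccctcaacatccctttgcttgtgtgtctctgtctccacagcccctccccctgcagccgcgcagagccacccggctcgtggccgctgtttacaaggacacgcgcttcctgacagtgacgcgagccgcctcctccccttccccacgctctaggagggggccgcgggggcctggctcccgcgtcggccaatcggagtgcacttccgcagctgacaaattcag
Fos: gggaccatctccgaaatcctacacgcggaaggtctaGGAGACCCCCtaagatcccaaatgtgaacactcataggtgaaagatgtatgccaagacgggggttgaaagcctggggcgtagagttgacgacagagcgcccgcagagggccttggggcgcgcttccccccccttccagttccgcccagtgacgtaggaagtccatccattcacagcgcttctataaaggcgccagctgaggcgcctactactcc
Egr2: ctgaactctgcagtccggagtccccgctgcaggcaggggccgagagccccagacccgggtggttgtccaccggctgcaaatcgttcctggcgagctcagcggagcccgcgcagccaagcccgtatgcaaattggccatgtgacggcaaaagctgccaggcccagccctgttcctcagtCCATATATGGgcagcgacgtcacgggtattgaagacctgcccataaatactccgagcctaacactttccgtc

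In all, 6 motifs were searched on both strands of the full windows. They were the CArG box, TGACGTCA (the full CREB site), TGANTCA (the AP-1 site), the NF-kB site, and the EGR sites GCGTGGGCG and GCGGGGGCG. Among the 7 members with windows, a CArG box was found in Egr2 alone, in 4 of its 5 windows. It lay at -72 to -63 in the window shown, and 1.63% of all 32851 windows hold one. Windows 3 to 5 overlap and hold the same CCATATATGG, and window 2 holds CCTTTTTTGG. Sites more than 250 bases before a start were not searched, for Fos as for the others, and Egr1 had no window. An NF-kB match was found in Fos (-214 to -205), Fosb, Fosl2 and Egr2, where 8.46% of all windows and 2581 of 27025 genes hold one. In Egr2 it lay in window 1 alone, which is not the window shown. Matches on the 2 strands overlap in Fosl2 and Egr2. GCGGGGGCG was found in Fosb and Fosl2 (2.91% of all windows). TGACGTCA, TGANTCA and GCGTGGGCG were found in none of the 7 members, against 1.79%, 7.81% and 0.612% of all windows. The windows of Jun, Junb and Jund held no exact match to any of the motifs. Variant sites were not counted, such as TGACATCA in the Jun window, which differs from TGACGTCA. The Jund stretch before the start, chr8:70697489-70697738, lies upstream of the annotated gene start at 70698949, so the bases next to that start were not searched. These matches describe letters in the window and show no binding.

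Among the Jun genes, which are intronless, Junb was the member that rose. JunB is an AP-1 subunit with weaker activating capacity than c-Jun at many sites, and it partners with BATF proteins in immune cells. Its level was 82.4, 81.03 and 77.1 FPKM in vehicle libraries 1 to 3 and 246, 239.8 and 226 FPKM in nanoparticle libraries 1 to 3. All nanoparticle libraries were close together and far above all vehicle libraries, a ratio of means of 2.96. The log2 change was 1.55 (SE 0.107, limma adjusted p = 2.3e-04), 1.21 with libraries scaled by read totals and 1.53 without nanoparticle library 1. Between 3696 and 10037 reads per library lay behind these values. Junb (ENSMUSG00000052837) occupies chr8:84974484-84978718 (GRCm38, minus strand) and overlaps Prdx2, on the other strand, by 351 bases. Whether the authors counted reads by strand is not given in the sources used here, and Prdx2 had 64.8 to 71.1 FPKM in vehicle and 79.9 to 134 FPKM in nanoparticle libraries (log2 change 0.64, limma adjusted p = 0.052).

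Jun, which encodes c-Jun, the founding AP-1 subunit and a target of the JNK kinases, was at 40.4, 36.02 and 35.5 FPKM in vehicle and 35.8, 32.3 and 30.5 FPKM in nanoparticle libraries. The groups overlapped slightly, with nanoparticle library 1 inside the vehicle range. The log2 change was -0.18 (95% interval -0.45 to 0.09, limma adjusted p = 0.28). The call depends on scaling: with read totals the log2 change was -0.51 (limma adjusted p = 0.014), against a median of -0.28 over all tested genes, and without nanoparticle library 1 it was -0.24 (limma adjusted p = 0.026). Jun shares 689 bases with the antisense gene Junos, which was at 1.87 to 2.63 FPKM in vehicle and 0.491 to 1.13 FPKM in nanoparticle libraries. Junos passed as lower (log2 change -0.82, limma adjusted p = 0.013).

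Jund encodes JunD, usually the steadiest Jun protein and less dependent on stimulation. It was at 74.2, 84.04 and 73.5 FPKM in vehicle and 39.2, 101.04 and 111 FPKM in nanoparticle libraries. Nanoparticle library 1 was the lowest of all libraries and libraries 2 and 3 were the highest, so the nanoparticle group lay on both sides of vehicle. The log2 change over all libraries was -0.02 (95% interval -0.96 to 0.93, limma adjusted p = 0.98). Without nanoparticle library 1 it was 0.45 (limma adjusted p = 0.0026). Jund also overlaps an antisense gene, Gm11175, by 919 bases.

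Among the Fos genes, Fos fell. It encodes c-Fos, the classic immediate early AP-1 subunit, whose transcript decays rapidly. The level was 18.3, 15.2 and 13.97 FPKM in vehicle and 7.92, 7.66 and 7.52 FPKM in nanoparticle libraries. Every nanoparticle library was below every vehicle library, and the nanoparticle values lay within a narrow band, with the vehicle mean 2.06 times the nanoparticle mean. The log2 change was -0.94 (SE 0.121, limma adjusted p = 0.0019), -1.26 with read totals and -0.96 without nanoparticle library 1. Its promoter stretch, printed above, held 1 NF-kB match. The recovered reads were 686 to 858 per vehicle library and 298 to 341 per nanoparticle library. Fos (ENSMUSG00000021250) occupies chr12:85473890-85477273 (plus strand) and overlaps no other annotated gene.

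Fosl2, which encodes Fra-2, and Fosl1, which encodes Fra-1, are Fos proteins without the strong activation domain of c-Fos. Fosl2 was at 13.3, 11.9 and 12.5 FPKM in vehicle and 16.5, 13.2 and 12.2 FPKM in nanoparticle libraries, with overlapping groups. Its log2 change was 0.13 (95% interval -0.19 to 0.46, limma adjusted p = 0.49), and the sign turned under each other scaling (-0.19 with read totals). Fosl1 was at 5.70, 5.82 and 4.32 FPKM in vehicle and 8.54, 6.27 and 4.89 FPKM in nanoparticle libraries. The groups overlapped, and nanoparticle library 1 was the highest of all libraries for both genes. The log2 change of Fosl1 was 0.25 (95% interval -0.24 to 0.74, limma adjusted p = 0.39), and with read totals it was -0.04. Fosl1 overlaps Ccdc85b, on the other strand, by 2767 bases of annotated gene span. Ccdc85b was at 30.9 to 34.6 FPKM in vehicle and 6.84 to 25.9 FPKM in nanoparticle libraries (log2 change -1.16, limma adjusted p = 0.080). Since counting by strand is not known, the part of this overlap in the Fosl1 values was not tested.

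Fosb, an immediate early gene best known from neurons, was close to undetected. Vehicle libraries 1 to 3 held 5, 17 and 13 of its reads and nanoparticle libraries 1 to 3 held 38, 2 and 6. The highest value was that of nanoparticle library 1, at 0.373 FPKM, and library 2 was under the floor of 3 reads. No test was made.

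Among the Egr genes, Egr3 fell furthest. EGR3 is a zinc finger factor studied chiefly in lymphocytes, where it acts with EGR2 to restrain activation. It was at 1.41, 2.43 and 2.62 FPKM in vehicle and 0.0695, 0.178 and 0.318 FPKM in nanoparticle libraries, on 124, 212 and 241 reads against 5, 13 and 27 reads. All vehicle libraries were far above all nanoparticle libraries, with the vehicle mean 11.4 times the nanoparticle mean. On the log2(FPKM + 1) scale the change was -1.39 (SE 0.183, limma adjusted p = 0.0022). That scale understates a gene near 1 FPKM: with 0.1 added in place of 1 the log2 change was -3.01 (limma adjusted p = 0.0031), and limma-voom on recovered reads gave -3.61 (adjusted p = 0.0052). Egr3 reached 1 FPKM in vehicle libraries alone, so it entered the test only through the group in which it was high. It occupies chr14:70077203-70082614 (plus strand).

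Egr2, which encodes the zinc finger factor Krox-20, was the dominant Egr transcript. It was at 66.2, 66.2 and 66.4 FPKM in vehicle, the tightest values of any member, and 49.7, 64.2 and 63.99 FPKM in nanoparticle libraries. All nanoparticle libraries were below vehicle, libraries 2 and 3 by little and library 1 by more. The log2 change was -0.17 (95% interval -0.49 to 0.15, limma adjusted p = 0.38) and -0.05 without nanoparticle library 1. It passed with read totals (-0.51, limma adjusted p = 0.017), with equal sums of FPKM (-0.63, adjusted p = 0.0023) and with the upper quartile (-0.36, adjusted p = 0.025), where the medians of all tested genes were -0.28, -0.38 and -0.15.

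Egr1, the Egr gene most widely used as an immediate early marker, was at 3.81, 4.80 and 4.96 FPKM in vehicle and 9.27, 2.68 and 2.36 FPKM in nanoparticle libraries. Nanoparticle library 1 was the highest of all libraries and libraries 2 and 3 were the lowest. The recovered reads were 679 in library 1 against 199 and 204 in libraries 2 and 3. The log2 change was -0.13 (95% interval -1.16 to 0.90, limma adjusted p = 0.84), and without library 1 it was -0.64 (limma adjusted p = 0.0030). Egr4, the Egr family gene outside the 10, had 6 reads in vehicle library 1 and 0 in the other libraries.

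**Figure D2:**
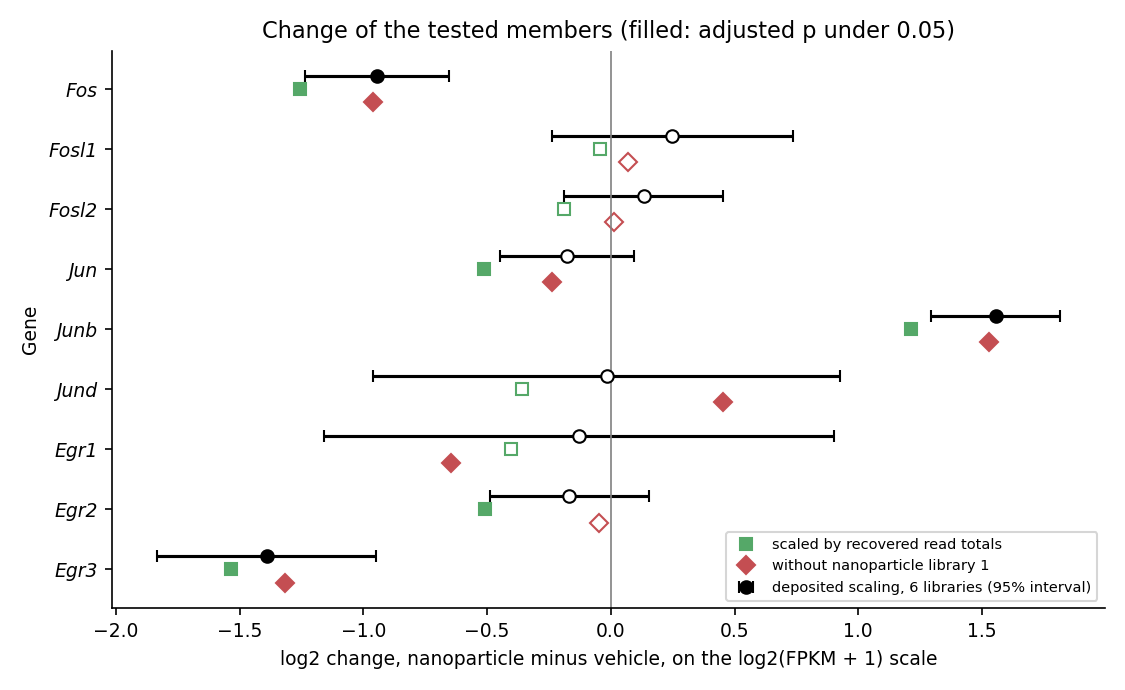
Log2 change of the 9 tested members, nanoparticle minus vehicle, on the log2(FPKM + 1) scale. Black circles show the deposited scaling with 95% intervals, green squares the scaling by read totals and red diamonds the comparison without nanoparticle library 1, filled where the adjusted p is under 0.05. Junb, Fos and Egr3 are filled in each of these, Jund and Egr1 only without nanoparticle library 1. Egr3 entered the test only through the vehicle libraries, where it was high.

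On the log2(FPKM + 1) scale, nanoparticle library 1 lay over 2-fold away from the average of libraries 2 and 3 in 2 of the 9 tested members, Jund and Egr1, where 11.8% of all tested genes did so. In FPKM, Jund was 2.71 times lower in library 1 than the mean of libraries 2 and 3, and Egr1 was 3.68 times higher. Egr3 was 3.57 times lower in library 1 in FPKM, at levels under 1 FPKM where the log2(FPKM + 1) scale compresses the difference. Junb and Fos differed little, with library 1 at 1.06 and 1.04 times the mean of libraries 2 and 3. Leaving out library 1 raised the number of members past the threshold to 2 higher (Junb and Jund) and 4 lower (Fos, Jun, Egr1 and Egr3), while 64.8% of all tested genes passed, 34.3% higher and 30.5% lower.

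Shares of a member in its family's summed FPKM do not depend on the scaling between libraries. Junb made up 41.8%, 40.3% and 41.4% of Jun family FPKM in vehicle and 76.7%, 64.3% and 61.5% in nanoparticle libraries. In vehicle Junb and Jund were present in nearly equal amounts, with a ratio of 1.04 ± 0.0733, and the ratio was 6.29, 2.37 and 2.04 in nanoparticle libraries 1 to 3. The Jun share was 19.2% ± 1.29 in vehicle and 9.37% ± 1.56 in nanoparticle libraries (SD, n = 3 each). In the Fos family, Fos made up 46.7% ± 1.99 in vehicle and 27.5% ± 3.46 in nanoparticle libraries, and Fosl2 37.4% ± 2.64 and 49.2% ± 0.464 (SD, n = 3 each). The Fosl2 share was nearly the same in all nanoparticle libraries, including library 1, and the most abundant Fos family transcript was Fos in each vehicle library and Fosl2 in each nanoparticle library. Egr2 held 89.8% to 92.7% of Egr family FPKM in vehicle, 95.7% and 95.98% in nanoparticle libraries 2 and 3, and 84.2% in library 1, where Egr1 held 15.7%.

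Summed over each family, Jun transcripts were at 195 ± 7.75 FPKM in vehicle and 354 ± 28.5 FPKM in nanoparticle libraries, and Fos transcripts at 33.8 ± 3.31 and 28.4 ± 4.49 FPKM (SD, n = 3 each). The ratio of Jun to Fos family FPKM was 5.27, 6.08 and 6.03 in vehicle and 9.63, 13.7 and 14.9 in nanoparticle libraries. Junb relative to Fos was 5.12 ± 0.544 in vehicle and 30.8 ± 0.664 in nanoparticle libraries (SD, n = 3 each), and library 1, at 31.1, lay between libraries 3 and 2. These ratios describe transcripts and carry no test, since they combine members.

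**Figure D3:**
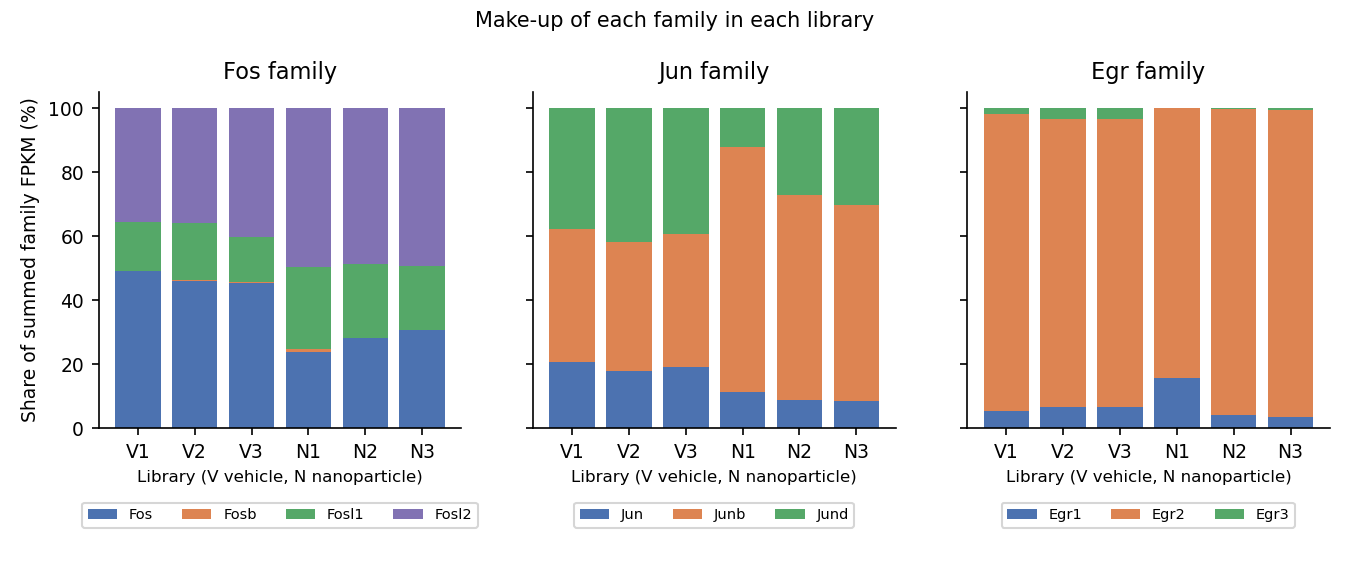
Share of each member in the summed FPKM of its family (percent), one bar per library, V for vehicle and N for nanoparticle. Junb takes 61.5% to 76.7% of the Jun family bars with nanoparticles, Fosl2 replaces Fos as the largest part of the Fos family bars, and Egr2 fills most of every Egr family bar.

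AP-1 proteins also pair with basic leucine zipper proteins of other families. Of 12 partner genes of the ATF, BATF, JDP and MAF families, all were tested, 6 rose and 2 fell. Among all tested genes 17.0% rose and 16.2% fell. The median log2 change was 0.50 against -0.0010 for all tested genes. With read totals 4 rose and 2 fell, against 10.4% and 33.8% of all tested genes. Without nanoparticle library 1 the counts were 7 and 4, against 34.3% and 30.5%. Batf2, an interferon-inducible BATF protein, rose from 2.56 ± 0.183 to 14.2 ± 3.57 FPKM (SD of n = 3; log2 change 2.07, limma adjusted p = 4.2e-04). Maff, a small MAF protein without an activation domain, rose from 9.30 ± 0.360 to 34.7 ± 3.87 FPKM (SD of n = 3; log2 change 1.79, limma adjusted p = 1.6e-04). Maf, a basic leucine zipper factor of the MAF family, fell (log2 change -0.55, limma adjusted p = 0.012).

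Factors that act at the promoters of the immediate early genes were examined next. Of 12 listed genes in the table, among them Srf and its partners, 11 were tested, 0 rose and 3 fell (Mef2a, Mkl1 and Elk1), with a median log2 change of -0.23. The share lower among all tested genes was 16.2%. With read totals 5 fell (median -0.54), against 33.8% of all tested genes. Without nanoparticle library 1 also 5 fell, against 30.5%. Mef2c, the gene not tested, had 201 to 227 reads in vehicle and 13 to 48 reads in nanoparticle libraries, with means of 0.681 and 0.118 FPKM and no overlap. Mef2a, a MEF2 factor, fell from 8.19 ± 0.524 to 5.04 ± 0.291 FPKM (SD of n = 3; limma adjusted p = 0.0043). Mkl1, an SRF coactivator, fell from 11.4 ± 0.237 to 7.87 ± 0.717 FPKM (SD of n = 3; limma adjusted p = 0.012). Srf itself averaged 17.7 ± 1.26 FPKM without and 14.7 ± 2.54 FPKM with particles (SD of n = 3; limma adjusted p = 0.21). The corepressor Nab2, which binds EGR proteins and is itself an EGR target, fell from 10.3 ± 1.03 to 5.16 ± 1.57 FPKM (SD of n = 3; log2 change -0.91, limma adjusted p = 0.018). The related Nab1 did not pass, with a log2 change of 0.10.

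On the MAP kinase route, 20 of 25 genes were tested, 4 rose (Map3k8, Mapkapk2, Map2k1 and Map3k5) and 3 fell (Rps6ka3, Rps6ka1 and Mapk14), with a median log2 change of 0.07, and 33.2% of all tested genes passed. With read totals 3 rose and 6 fell (median -0.25), against 10.4% and 33.8% of all tested genes. Without nanoparticle library 1 the counts were 6 and 6, against 34.3% and 30.5%. Map3k8, the kinase that leads from NF-kB p105 to ERK in myeloid cells, rose from 2.24 ± 0.199 to 7.59 ± 0.321 FPKM (SD of n = 3; limma adjusted p = 2.0e-04). Mapkapk2, a p38 target that stabilizes cytokine transcripts, rose from 60.9 ± 2.97 to 225 ± 0.656 FPKM (SD of n = 3; limma adjusted p = 1.1e-04). Rps6ka3, which encodes the ERK target RSK2, fell from 37.2 ± 1.40 to 19.6 ± 1.67 FPKM (SD of n = 3; limma adjusted p = 0.0014). Mapk14, which encodes p38 alpha, fell from 29.5 ± 0.963 to 20.8 ± 3.45 FPKM (SD of n = 3; limma adjusted p = 0.036).

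Other immediate early genes went in both directions, mostly up. Of 32 such genes that the files list, 28 were tested, 17 rose, 7 fell and 4 did not pass. Their median log2 change was 0.82. Dusp2, counted among the 17, reached 1 FPKM in nanoparticle libraries alone. It thus entered the test only through the group in which it was high. Among all tested genes 17.0% rose and 16.2% fell. With read totals 13 rose and 8 fell, against 10.4% and 33.8% of all tested genes. Without nanoparticle library 1 the counts were 18 and 7, against 34.3% and 30.5%. Gadd45b, a stress-induced regulator of MAP kinase signalling, rose from 6.52 ± 0.855 to 92.4 ± 9.80 FPKM (SD of n = 3; log2 change 3.64, limma adjusted p = 3.3e-05). Phlda1 rose from 8.38 ± 0.383 to 34.1 ± 2.94 FPKM (SD of n = 3; log2 change 1.90, limma adjusted p = 1.1e-04). Klf4, a zinc finger factor of myeloid cells, fell from 17.9 ± 0.487 to 2.55 ± 0.834 FPKM (SD of n = 3; log2 change -2.44, limma adjusted p = 2.3e-04). Myc, a driver of cell growth, fell from 16.04 ± 0.775 to 4.14 ± 1.77 FPKM (SD of n = 3; log2 change -1.79, limma adjusted p = 0.0036).

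Of 12 genes known to carry AP-1 sites, 11 were tested, 3 rose (Il6, Timp1 and Ccl2) and 1 fell (Plau), with a median log2 change of 0.61, beside 33.2% of all tested genes past the threshold. With read totals, where 44.2% of all tested genes passed, 2 rose and 2 fell (median 0.26), Ccl2 no longer passing (limma adjusted p = 0.056). Without nanoparticle library 1, where 64.8% of all tested genes passed, 7 rose and 3 fell. Il6 had at most 3 reads in each vehicle library, the floor used here, and 264 to 383 FPKM in nanoparticle libraries. Il6 thus entered the test only through the group in which it was high, so its call among the genes that rose adds nothing to these values. Timp1, a metalloproteinase inhibitor, rose from 24.3 ± 0.915 to 159.9 ± 81.2 FPKM (SD of n = 3; limma adjusted p = 0.0018). Plau, the urokinase gene, fell from 289 ± 14.4 to 108 ± 58.0 FPKM (SD of n = 3; limma adjusted p = 0.043), and nanoparticle library 1 was lowest, at 41.8 FPKM against 136 and 148 in the other two. The lists overlap in Maff and Atf3, and Plaur, Mmp9, Mmp13, Ccnd1, Cd44, Vegfa and Spp1 did not pass.

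**Figure D4:**
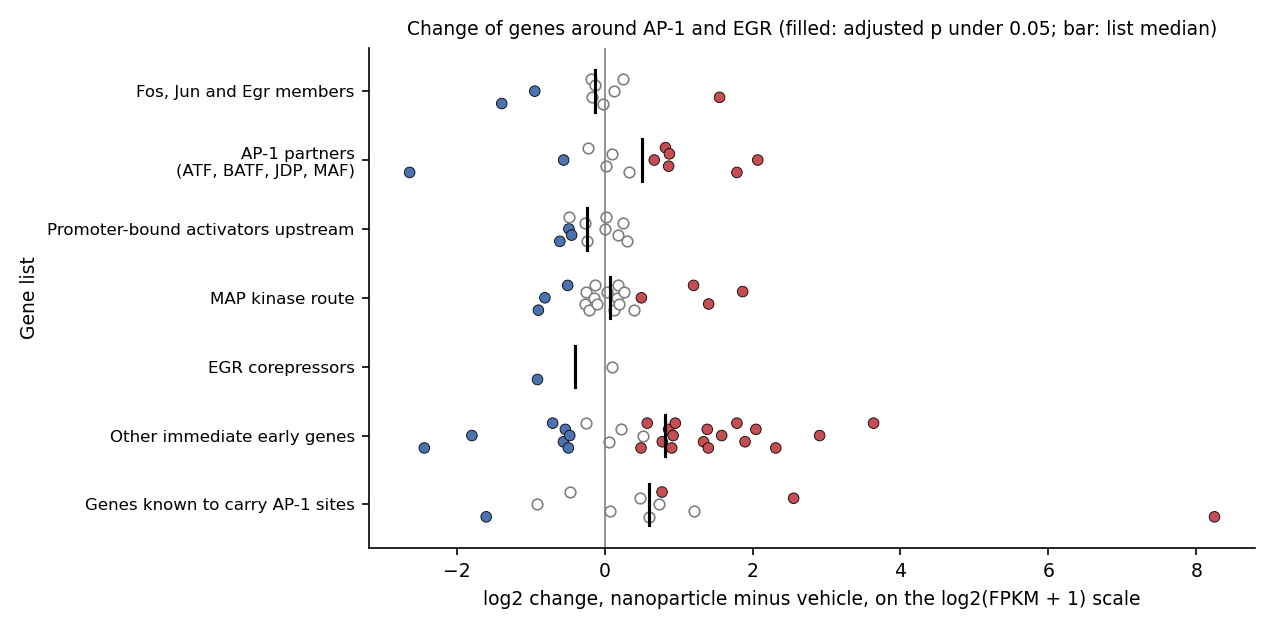
Log2 change of each tested gene on the log2(FPKM + 1) scale for the 9 tested members and 6 gene lists, with red points rising and blue points falling at an adjusted p under 0.05, open points not past it, and a black bar at each median. The member points lie between -1.39 and 1.55, and 17 of the 28 other immediate early genes are red, where 17.0% of all tested genes rose. Egr3, Il6 and Dusp2 entered the test only through the group in which each was high.

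For each tested member the gene with the most similar pattern was sought, as the smallest Euclidean distance between log2(FPKM + 1) values centred on each gene's mean over the 6 libraries. For Junb it was Sbds (23.1 ± 0.748 and 72.8 ± 3.60 FPKM in vehicle and nanoparticle libraries, SD, n = 3 each), at a distance of 0.0814. For Fos it was Itga6, which fell too (log2 change -0.93), at 0.163, and for Egr3 it was Itgae (2.55 ± 0.461 and 0.326 ± 0.143 FPKM, SD, n = 3 each), at 0.196. The gene nearest to Jund was Rps23, at 0.119, and the gene nearest to Egr1 was 9930111J21Rik1, at 0.260. Jun was nearest to Fto, Fosl2 to Spata6, Fosl1 to C920009B18Rik and Egr2 to Sdha, none of which passed the test.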

How the data were processed

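RNA was sequenced from 3 vehicle and 3 nanoparticle libraries. The submitters' processing notes name CASAVA, STAR 2.5, HTSeq, edgeR 3.16.5 and DESeq2 and the builds mm10 and hg19, without roles. The authors deposited FPKM; the files do not name this unit, which rests on one property: multiplied by merged exon lengths of GENCODE M21 (GRCm38) and 1 scale per library, 95.8% to 96.1% of values above 0 became whole reads (within 0.01). For Fosl1 a length of 1707 bases in place of 2033 did so. The scales followed median-of-ratios size factors to within 0.0107%, so the deposited FPKM are scaled on the premise that most genes do not change. Both deposited tables hold the same values. A floor of 3 reads served only as a label for very low values and is no measure of counting error. The main fit on log2(FPKM + 1) does not weight values by their reads.

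Genes reaching 1 FPKM in 3 or more libraries entered the fit, and log2(FPKM + 1) was fitted with limma 3.58.1 in R 4.3.3 (group as single term, eBayes with trend, Benjamini-Hochberg adjustment over 10682 genes, threshold 0.05). The fit was tested on simulated data with the same extra spread for all genes and no divergent library. That setting is simpler than these data, where nanoparticle library 1 stood apart, so it does not check the calls given here. Alternatives were pseudocounts of 0.1 and 5, no filter and a filter of 5 FPKM, 3 scalings (equal FPKM sums, recovered read totals, upper quartile), eBayes without trend, limma-voom, a replicate block and leaving out each library. Members and gene lists were chosen with earlier results of these data known. Named besides the members were up to 2 genes per list and direction with the smallest adjusted p. Egr4, the gene nearest to each member in pattern and members of any count of 5 or fewer were named too. Srf, Nab1, Mef2c, Dusp2, the marker genes, overlapping genes and the genes listed as not passing were named after their values were seen. Pandas 2.3.3, scipy 1.17.1 and matplotlib 3.10.9 were used. Replicates of a group differed beyond sampling noise (chi-square per degree of freedom of 2.90 or more), so none was a duplicate. A gene that the naming rule selects is not reported here.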

Additional observations from a re-analysis of the deposited data

How the results depend on the processing

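Junb stayed higher and Fos lower past the threshold in all 16 alternatives, and Egr3 lower in the 15 that tested it. Their log2 changes ran from 1.09 to 1.59 (Junb), -1.37 to -0.71 (Fos) and -3.61 to -0.46 (Egr3), the last with the added constant. Egr3 entered the fits filtered at 1 FPKM only through the group in which it was high. Its repeated calls there add nothing to its values. With equal sums of FPKM 881 genes were higher and 4307 lower, with read totals 1108 and 3613, in place of 1817 and 1733. Members past the threshold were then 5 in both settings, 4 of them lower, since those scalings lower nanoparticle values relative to vehicle. Fosl1 turned to -0.15 with equal sums and -0.044 with read totals. Fosl2 turned to -0.30 with equal sums, -0.19 with read totals and -0.044 with the upper quartile. The ratio of summed FPKM, nanoparticle over vehicle, was 0.841 for the Fos, 1.82 for the Jun and 0.881 for the Egr family as deposited. It was 0.616, 1.31 and 0.635 with equal sums, 0.664, 1.43 and 0.693 with read totals, and 1.59 and 0.770 for the Jun and Egr families with the upper quartile. With a filter of 5 FPKM, which leaves fewer genes, 975 genes and 1 member were lower. Listed pathway genes, 28 higher and 17 lower, were 14 and 28 with equal sums. Over the comparisons that leave out 1 library, genes past the threshold numbered 2141 to 6923 (1114 to 3660 higher, 1027 to 3263 lower), members 3 to 6 (1 to 2 higher, 2 to 4 lower) and pathway genes 26 to 62 (6 to 26 lower), in each case with the most calls without nanoparticle library 1. The log2 change of Jund then ran from -0.29 to 0.45 and that of Egr1 from -0.64 to 0.16. With a replicate block 2785 genes passed, 11 pathway genes were lower and the same 3 members passed. Same-numbered libraries deviated together with correlations of 0.0654, 0.113 and -0.0577 across genes, and not every library correlated best with its own number, so the numbers were not taken as pairs. Where not stated, the cause of a difference was not tested. The values of Fosb, Egr3 with nanoparticles and Egr4 rested on few reads, at most 38, 27 and 6 per library.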
